A study of Drosophila melanogaster with 6 samples.

Results

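Basement membrane genes were examined in the adult female fat body of Drosophila melanogaster, the tissue that combines functions of mammalian liver and adipose tissue. The group was set by name and not by any measured value, although earlier results of these data were known when it was chosen. It lists 10 genes. They encode the collagen IV chains (vkg and Col4a1), laminin subunits (LanA, LanB1 and LanB2), perlecan (trol), nidogen (Ndg), the collagen-binding glycoprotein SPARC and the matrix metalloproteases Mmp1 and Mmp2. Of these, 8 were matched by symbol to a row of the count table, which held 15682 genes, and all 8 were among the 10398 genes with enough counts to be tested. LanB2 and trol were not analysed here.

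RNA-seq was performed on 6 libraries, with 3 in each group. FB-Dp110DN flies expressed a dominant-negative, kinase-defective version of Dp110 from a UAS transgene under the constitutive fat body driver FB-Gal4, and FB-GAL4 flies carried the driver without the transgene. Dp110, encoded by Pi3K92E, is the catalytic subunit of the class I phosphoinositide 3-kinase that acts below the insulin receptor. All flies were mated females aged 7 to 10 days in the white Dahomey background, a stock that carries Wolbachia. Each library pooled several dissected fat bodies, 5 flies per sample according to the design text, while the study's methods give a larger number. The comparison asks how matrix gene expression in the fat body differs when Dp110 activity is lowered there. Same-numbered libraries of both groups were prepared together, on a different date for each number, and are called pairs 1, 2 and 3. The driver also sets what the design can show, because the transgene was active throughout the life of the fat body and dissected tissue can hold other cells.

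Library totals ranged from 22607341 to 36870161 counts. Expression is given as CPM, the counts of a gene scaled to a common library size after correction for library composition. Pi3K92E, whose row also counts the transgene's reads, was at 892, 1246 and 343 CPM in FB-Dp110DN replicates 1, 2 and 3 and at 81.0, 89.9 and 94.1 CPM in FB-GAL4, so every library matched its label. FB-Dp110DN replicate 3 had the lowest transgene level of its group.

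A basement membrane is a thin sheet of extracellular matrix that lines the basal side of tissues. Collagen IV and laminin each form a network in it, perlecan and nidogen link these networks, and SPARC binds collagen IV and aids its handling outside the cell. In the fly larva, fat body cells are the main source of the collagen IV that circulates in the haemolymph and is laid down around other organs, while hemocytes also secrete matrix proteins. Matrix metalloproteases cut and remodel the sheet.

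The matrix genes were higher in FB-Dp110DN, and the laminin subunits differed least. All 8 measured genes were higher in FB-Dp110DN in all 3 pairs, a pattern shown by 28.3% of all tested genes, of which 53.6% had a log2 fold change above 0. None of the 8 passed an adjusted p of 0.05 in the quasi-likelihood test of edgeR, which called only 3 genes, or 0.0289%, of the whole table. At an unadjusted p under 0.05 in that test, 6 of the 8 were higher and 0 were lower, against 13.7% of all tested genes higher and 12.5% lower, or 26.1% in either direction. With the Wald test of DESeq2, 5 of the 8 (vkg, Col4a1, Ndg, SPARC and Mmp2) passed an adjusted p of 0.05 as higher, against 6.82% of the genes given an adjusted p by that tool, and 0 passed as lower, against 3.89%. The median log2 fold change was 0.68 over the 8 genes, with a range from 0.14 to 0.98, and 0.04 over all tested genes. Together the 8 genes took 1310, 1599 and 2266 CPM in FB-Dp110DN and 925, 907 and 1378 CPM in FB-GAL4. In bulk tissue, more RNA per cell and more cells of an expressing type cannot be told apart.

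**Figure D1:**
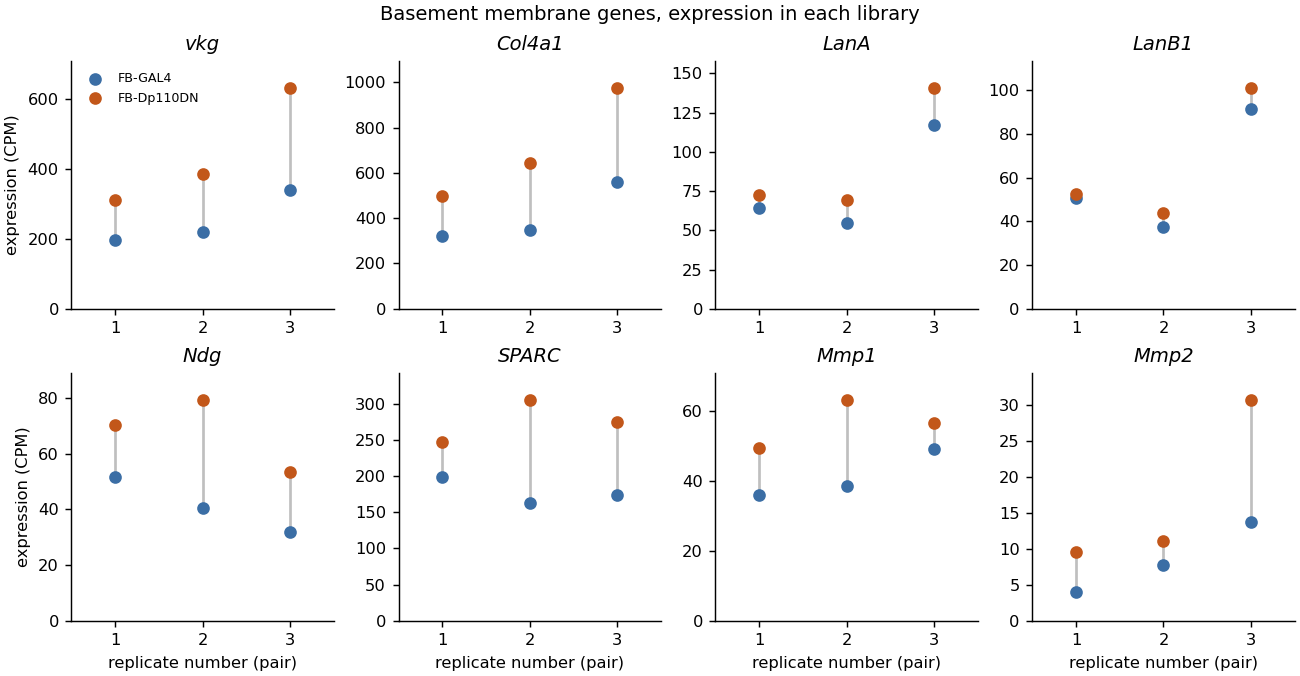
Expression of each measured gene in CPM (vertical axis, from 0) against the replicate number that pairs the libraries (horizontal axis), with 1 point per library and a grey line joining each pair. The FB-Dp110DN point lies above the FB-GAL4 point in all 3 pairs of all 8 genes, and replicate 3 of both groups is highest for vkg, Col4a1, LanA, LanB1 and Mmp2.

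The collagen IV chains were both higher in FB-Dp110DN in every pair, and their differences were close to each other. vkg (FBgn0016075, chromosome arm 2L), which encodes the alpha 2 chain, was at 312, 384 and 632 CPM in FB-Dp110DN and at 196, 220 and 339 CPM in FB-GAL4. Its group means were 442 ± 168 and 252 ± 76.6 CPM (SD, n = 3 each), a 1.76-fold difference. The groups overlapped, because FB-GAL4 replicate 3 stood above FB-Dp110DN replicate 1, but the log2 difference was positive within every pair (0.66, 0.81 and 0.90). Col4a1 (FBgn0000299, 2L), which encodes the alpha 1 chain, was at 496, 642 and 976 CPM in FB-Dp110DN and at 323, 346 and 561 CPM in FB-GAL4, a 1.72-fold difference of means. It overlapped between groups in the same libraries as vkg, and its pairs differed by 0.62, 0.89 and 0.80.

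In the edgeR fit with the pair as a block, vkg had a log2 fold change of 0.79 (SE 0.13, 95% interval 0.48 to 1.10, unadjusted p = 0.000797, adjusted p = 0.153). It ranked 18 by p among all tested genes. Col4a1 had a log2 fold change of 0.77 (SE 0.14, 95% interval 0.43 to 1.11, unadjusted p = 0.0014 and adjusted p = 0.153 in edgeR) and ranked 37. DESeq2 gave adjusted p-values of 2.9e-05 for vkg and 7.4e-05 for Col4a1. Neither call held in edgeR, and without the pair as a block the unadjusted edgeR p was 0.0442 for vkg and 0.0506 for Col4a1.

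Both chains enter the same secreted heterotrimer, and their ratio changed little from library to library. Scaled by exonic length, Col4a1 over vkg was 1.68, 1.76 and 1.63 in FB-Dp110DN and 1.74, 1.66 and 1.75 in FB-GAL4. On the log2 scale the groups differed by -0.02 in this ratio (exact permutation test over libraries, two-sided, p = 0.70), and the sign was not the same in every pair. That test cannot go below 0.10 with so few libraries, so its p does not show that the ratio was equal. The genes are adjacent in the annotated gene order of arm 2L, on opposite strands. The nearest tested genes on either side, SelT and CG31650, had log2 fold changes of -0.08 (SE 0.14) and -0.16 (SE 0.15), with unadjusted edgeR p-values of 0.583 and 0.326.

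The laminin subunits showed the smallest differences. LanA (FBgn0002526, 3L), the alpha subunit, was at 72.2, 69.6 and 141 CPM in FB-Dp110DN and at 64.0, 54.4 and 117 CPM in FB-GAL4. LanB1 (FBgn0261800, 2L), the beta subunit, was at 52.3, 43.7 and 101 CPM in FB-Dp110DN and at 50.6, 37.4 and 91.3 CPM in FB-GAL4. For both genes replicate 3 of either group was well above the other libraries, so the groups overlapped widely. The within-pair log2 differences were 0.17, 0.35 and 0.26 for LanA and 0.05, 0.22 and 0.15 for LanB1. The fitted log2 fold change was 0.26 for LanA (SE 0.12, 95% interval -0.02 to 0.55, edgeR unadjusted p = 0.0662, adjusted p = 0.211). It was 0.14 for LanB1 (SE 0.12, 95% interval -0.15 to 0.43, edgeR unadjusted p = 0.289, adjusted p = 0.467). Neither subunit passed the adjusted threshold in edgeR or DESeq2, and the intervals still allow differences of up to 0.55 and 0.43. With DESeq2 size factors in the edgeR fit, LanA passed the unadjusted threshold (edgeR unadjusted p = 0.0434, adjusted p = 0.181). That made 7 of the 8 genes higher, against 16% of all tested genes. LanA over LanB1 per kilobase was 0.742, 0.855 and 0.748 in FB-Dp110DN and 0.680, 0.781 and 0.690 in FB-GAL4. This ratio was higher in FB-Dp110DN by 0.12 on the log2 scale, with pairs of 0.13, 0.13 and 0.12, while the groups overlapped. An exact permutation test over libraries, which ignores the pairs, gave p = 0.30. It cannot go below 0.10 with 3 against 3 libraries, and flipping signs within 3 pairs cannot go below 0.25, so neither can call a ratio here.

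**Figure D2:**
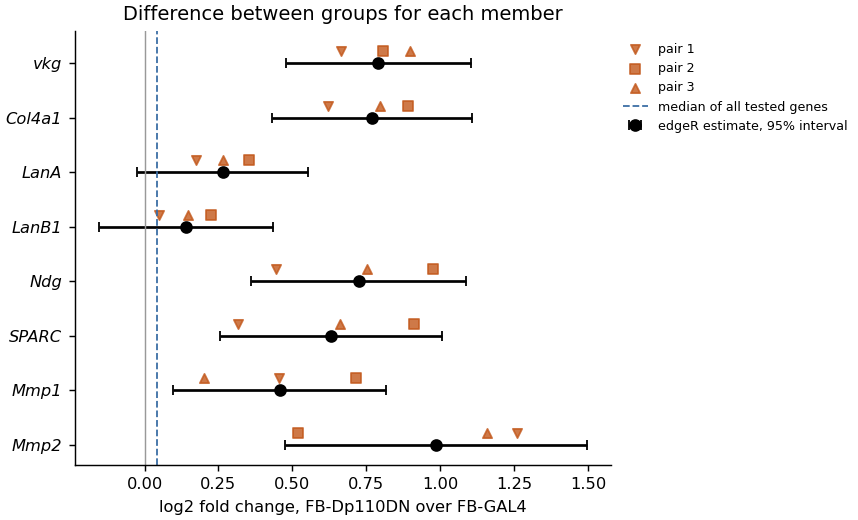
Log2 fold change of FB-Dp110DN over FB-GAL4 (horizontal axis) for each measured gene, with the edgeR estimate and its 95% interval in black and the difference within each pair as coloured symbols. The dashed line is the median of all tested genes, 0.04. The intervals of LanA and LanB1 include 0, and those of the other genes lie above it.

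Within every pair the difference was larger for each collagen chain than for each laminin subunit. The summed CPM of the collagen chains over that of the measured laminin subunits was 6.49, 9.06 and 6.64 in FB-Dp110DN and 4.54, 6.16 and 4.32 in FB-GAL4. Every FB-Dp110DN library was above every FB-GAL4 library. The ratio was higher by 0.56 on the log2 scale, and the pairs differed by 0.52, 0.56 and 0.62. The exact permutation test gave p = 0.10, the smallest value it can give. Because 7 ratios were computed, and were chosen after the values of the genes had been seen, the Benjamini-Hochberg adjusted value was 0.70 for each of them.

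**Figure D3:**
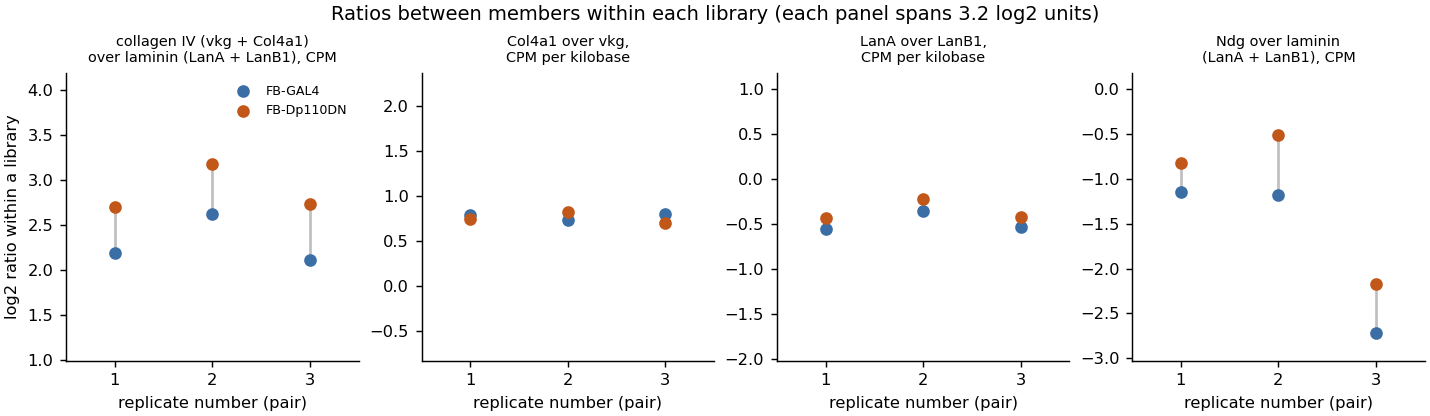
Log2 ratio between genes within a library (vertical axis, every panel spanning the same number of log2 units) against the replicate number that pairs the libraries, with 1 point per library and a grey line joining each pair. Collagen IV over laminin is separated between the groups, Col4a1 over vkg is not, and Ndg over laminin drops in replicate 3 of both groups.

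Ndg (FBgn0026403, 2R), which encodes nidogen, the linker between laminin and collagen IV, did not overlap between the groups. It was at 70.4, 79.5 and 53.5 CPM in FB-Dp110DN and at 51.7, 40.4 and 31.8 CPM in FB-GAL4. The lowest FB-Dp110DN library was therefore just above the highest FB-GAL4 library, and the means of 67.8 ± 13.2 and 41.3 ± 9.99 CPM (SD, n = 3 each) differed 1.64-fold. The log2 fold change was 0.72 (SE 0.15, 95% interval 0.36 to 1.09, edgeR unadjusted p = 0.00267, adjusted p = 0.153). Its pairs differed by 0.44, 0.97 and 0.75, and DESeq2 gave an adjusted p of 0.00506. Against the measured laminins, Ndg was higher in FB-Dp110DN by 0.51 on the log2 scale, with pairs of 0.32, 0.67 and 0.54. The exact permutation test, which ignores the pairs, gave p = 0.50, and could not have gone below 0.10. A small part of its exonic length, 3.28%, overlaps the gene CG34222 in the annotation.

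SPARC (FBgn0026562, 3R), which encodes the collagen IV-binding glycoprotein made by fat body and hemocytes, was also separated between the groups. It was at 248, 306 and 275 CPM in FB-Dp110DN and at 199, 162 and 174 CPM in FB-GAL4, and replicate 3 did not stand apart in either group. The means were 276 ± 29.0 and 178 ± 18.9 CPM (SD, n = 3 each), a 1.55-fold difference. The log2 fold change was 0.63 (SE 0.15, 95% interval 0.25 to 1.01, edgeR unadjusted p = 0.00618, adjusted p = 0.153), with pairs of 0.31, 0.91 and 0.66. The adjusted p in DESeq2 was 0.0122. Relative to the summed collagen chains, SPARC differed by -0.15 on the log2 scale, with pairs of -0.32, 0.05 and -0.17 (exact permutation test, p = 0.70).

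The metalloproteases were both higher in FB-Dp110DN at the unadjusted threshold, and Mmp2 had the largest log2 fold change of the 8 genes. Mmp1 (FBgn0035049, 2R), the secreted enzyme, was at 49.5, 63.4 and 56.6 CPM in FB-Dp110DN and at 36.1, 38.6 and 49.2 CPM in FB-GAL4. The groups did not overlap, but FB-Dp110DN replicate 1 and FB-GAL4 replicate 3 were almost equal. Its log2 fold change was 0.46 (SE 0.15, 95% interval 0.10 to 0.82, edgeR unadjusted p = 0.0207, adjusted p = 0.154), and its pairs differed by 0.45, 0.72 and 0.20. DESeq2 did not call it (adjusted p = 0.0744).

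Mmp2 (FBgn0033438, 2R), the membrane-anchored enzyme, was at 9.55, 11.1 and 30.7 CPM in FB-Dp110DN and at 3.95, 7.75 and 13.7 CPM in FB-GAL4. Replicate 3 was the highest library of each group, and FB-GAL4 replicate 3 was above FB-Dp110DN replicates 1 and 2. The log2 fold change was 0.98 (SE 0.21, 95% interval 0.47 to 1.50, edgeR unadjusted p = 0.00318, adjusted p = 0.153), the widest interval of the 8 genes, with pairs of 1.26, 0.52 and 1.16. DESeq2 gave an adjusted p of 0.00633, and without the pair as a block the unadjusted edgeR p was 0.138. In the annotation 5.67% of the exonic length of Mmp2 overlaps the antisense gene asRNA:CR44069, and 5.87% of that of Mmp1 overlaps Pof.

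Timp encodes the tissue inhibitor that binds these enzymes. It was at 73.8, 72.8 and 57.6 CPM in FB-Dp110DN and at 65.2, 51.1 and 54.8 CPM in FB-GAL4, with a log2 fold change of 0.25 (SE 0.14, edgeR unadjusted p = 0.118). Timp over the summed metalloproteases was lower in FB-Dp110DN in every pair, by -0.38, -0.18 and -0.40 on the log2 scale, and the groups overlapped. For this ratio the exact permutation test, which ignores the pairs, gave p = 0.50. Timp was named after its values were seen.

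Counting the genes by overlap alone, 3 of the 8 (Ndg, SPARC and Mmp1) had every FB-Dp110DN library above every FB-GAL4 library, against 11.6% of all tested genes. Without replicate 3 of both groups, 7 of the 8 were separated in this way, against 31.9% of all tested genes, and LanB1 was not.

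Levels can be compared between genes only per unit of length. In CPM per kilobase of exon, SPARC was highest in FB-GAL4 at 149 ± 15.7 (SD, n = 3), which placed it at percentile 95.3 of the 9956 tested genes with a length. Col4a1 followed at 66.6 ± 21.3 and vkg at 38.7 ± 11.8, percentiles 90.1 and 82.8. All 3 SPARC libraries were above all Col4a1 libraries, and the highest vkg library (52.2) was level with the lowest Col4a1 library (52.4).

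A second tier lay well below these. LanB1 was at 9.52 ± 4.47, Ndg at 8.58 ± 2.07, Mmp1 at 8.53 ± 1.44 and LanA at 6.72 ± 2.90 CPM per kilobase in FB-GAL4, between percentiles 33.4 and 42.1, and their libraries overlapped. Mmp2 was lowest at 1.67 ± 0.975, percentile 16.5, and did not overlap them. In FB-Dp110DN the means were 229.9 for SPARC, 114 for Col4a1, 68.0 for vkg, 14.1 for Ndg, 11.7 for Mmp1, 10.5 for LanB1, 8.06 for LanA and 3.38 for Mmp2 CPM per kilobase. The order differed from that of FB-GAL4 only in the second tier, where LanB1 came after Ndg and Mmp1, and these genes overlapped there too.

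**Figure D4:**
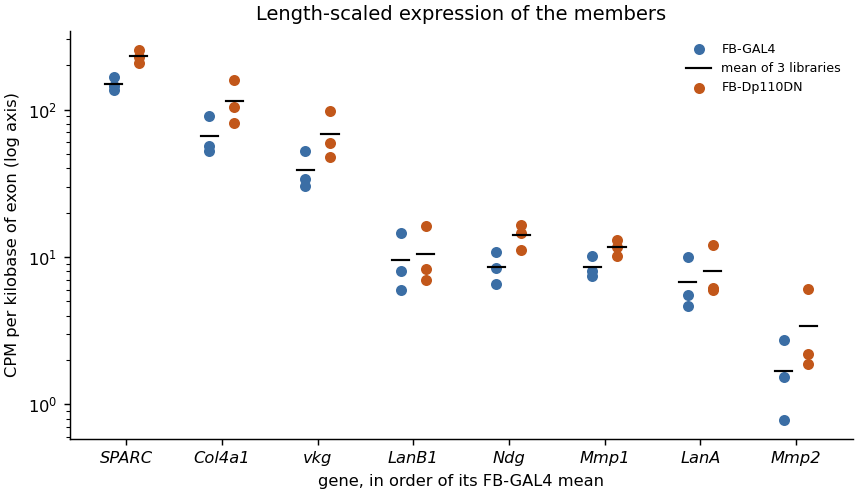
Length-scaled expression in CPM per kilobase of exon (vertical log axis) for the 8 measured genes in the order of their FB-GAL4 mean, with 1 point per library and a bar at the mean of the 3 libraries. SPARC and the collagen chains lie well above the others, and Mmp2 is lowest.

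Replicate 3 stood apart for several of these genes in both groups. Compared with the mean log2 CPM of replicates 1 and 2, replicate 3 was higher by 0.87 in FB-Dp110DN and 0.71 in FB-GAL4 for vkg, and by 0.79 and 0.75 for Col4a1. The gap was 0.99 in both groups for LanA, 1.08 and 1.07 for LanB1, and 1.57 and 1.30 for Mmp2. It was smaller for the genes that did not overlap between the groups. For SPARC it was -0.00 and -0.05, for Mmp1 0.02 and 0.40, and for Ndg it was negative, at -0.48 and -0.52. The difference between the groups within pair 3 was nevertheless inside the range of the other pairs for Col4a1, LanA, LanB1, Ndg, SPARC and Mmp2.

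Markers of other cell types moved with the replicates and in part with the groups. Summed muscle markers were at 11239, 12967 and 48164 CPM in FB-Dp110DN and at 9679, 8018 and 25958 CPM in FB-GAL4, so replicate 3 was the highest in each group, as for vkg, Col4a1, the laminins and Mmp2. Of 18 muscle markers tested, 16 were higher in FB-Dp110DN at an unadjusted edgeR p under 0.05, with a median log2 fold change of 0.61. Over all tested genes, 13.7% were higher and 12.5% were lower at that threshold. Summed fat body markers were at 73500, 78310 and 57676 CPM in FB-Dp110DN and at 71560, 57231 and 25244 CPM in FB-GAL4, which gave pair differences of 0.04, 0.45 and 1.19 on the log2 scale. Of 10 tested, 2 were higher and 0 were lower at an unadjusted edgeR p under 0.05, and their median log2 fold change was 0.51, beside 0.68 for the matrix genes. All 10 matched fat body markers had counts in every library. A summed CPM mainly follows its most abundant genes, so the pair differences of the sum do not describe every fat body marker. Lsd-1, from this list, was at 840, 1031 and 417 CPM in FB-Dp110DN and at 665, 663 and 340 CPM in FB-GAL4. Its pair differences were 0.34, 0.64 and 0.29. Lsd-1 was named after its values were seen.

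Hemocytes make collagen IV, laminin, SPARC and Mmp1 in the fly and can adhere to the dissected tissue. The 13 hemocyte markers tested had a median log2 fold change of 0.31, with 0 higher and 0 lower at an unadjusted edgeR p under 0.05. Their summed levels were 4672, 4696 and 3511 CPM in FB-Dp110DN and 4244, 3162 and 2425 CPM in FB-GAL4. These sums were lowest in replicate 3 of each group. Nplp2 made up most of them, at 3658, 3484 and 2441 CPM in FB-Dp110DN and 3291, 2274 and 1406 CPM in FB-GAL4. The replicate pattern of the sum therefore mainly follows Nplp2 and does not describe the other hemocyte markers. Hml, a hemocyte-enriched clotting protein gene, was at 115, 116 and 85.4 CPM in FB-Dp110DN and at 80.4, 69.8 and 96.0 CPM in FB-GAL4, with pair differences of 0.51, 0.73 and -0.17. NimC1, a phagocytosis receptor of hemocytes, was at 28.6, 34.3 and 38.3 CPM in FB-Dp110DN and at 23.8, 22.7 and 33.5 CPM in FB-GAL4, with pair differences of 0.26, 0.60 and 0.20 (edgeR unadjusted p = 0.0551, adjusted p = 0.198). NimC1 was thus higher in every pair and highest in replicate 3 of each group. Nplp2 was also higher in every pair but lowest in replicate 3 of each group, and Hml was lower in pair 3. These genes of the hemocyte list therefore did not share a replicate pattern, and Hml and NimC1 also differed from each other. The summed fat body markers, like Nplp2, were lowest in replicate 3 of each group. Which cells the Nplp2 reads came from was not tested. Hml, NimC1 and Nplp2 were named after their values were seen. Ovarian germline markers ran the other way, with 5 of 11 lower at an unadjusted edgeR p under 0.05 and a median of -0.61. Of 15 follicle cell and eggshell markers, 0 passed in either direction, and of 15 gut protease markers 3 were higher and 1 was lower. The shares over all tested genes at that threshold were 13.7% higher and 12.5% lower. What part the share of fat body, muscle, hemocyte or ovarian cells had in the matrix gene values was not tested.

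Other genes around the basement membrane were taken from lists made by function. Of 15 other matrix proteins tested, 8 were higher and 0 were lower at an unadjusted edgeR p under 0.05, 14 had a positive log2 fold change, and the median was 0.51. All tested genes gave 13.7% higher. None passed an adjusted p in edgeR, and 6 were called higher by DESeq2, against 6.82% of the genes given an adjusted p by that tool. Tig, which encodes the integrin ligand tiggrin, was at 185, 124 and 109 CPM in FB-Dp110DN and at 121, 64.0 and 61.7 CPM in FB-GAL4 (log2 fold change 0.80, SE 0.13, edgeR unadjusted p = 0.000748). Ppn, which encodes the matrix proteoglycan papilin, was at 263, 324 and 329 CPM against 176, 182 and 223 CPM (0.66, SE 0.13, edgeR unadjusted p = 0.00205). Both were higher in every pair, and Ppn did not overlap between the groups.

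Glt, which encodes the secreted protein glutactin, was at 563, 629 and 646 CPM in FB-Dp110DN and at 439, 361 and 339.8 CPM in FB-GAL4 (log2 fold change 0.70, SE 0.16, edgeR unadjusted p = 0.00502). For dally, a glypican, the levels were 70.0, 70.3 and 78.0 CPM against 55.3, 44.3 and 55.2 CPM (0.50, SE 0.13, edgeR unadjusted p = 0.0079). Neither overlapped between the groups. The remaining genes past that threshold were Pxn, Tsp, fat-spondin and Cow, with log2 fold changes of 0.61, 0.58, 0.51 and 0.47.

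Most of the measured genes that modify and export collagen IV differed little. The list held 14 genes, of which 11 matched a row, and Pdi, Tango1 and KdelR were not analysed. Of 11 tested, 2 were higher and 0 were lower at an unadjusted edgeR p under 0.05, 6 had a positive log2 fold change, and the median was 0.09. These shares, 18.2% higher and 54.5% above 0, were near those of all tested genes (13.7% and 53.6%). The genes that passed are known as collagen-modifying enzymes. Plod, a lysyl hydroxylase, was at 122, 92.7 and 196 CPM in FB-Dp110DN and at 104, 64.7 and 121 CPM in FB-GAL4 (log2 fold change 0.48, SE 0.14, edgeR unadjusted p = 0.0125, DESeq2 adjusted p = 0.0390). PH4alphaEFB, a prolyl hydroxylase, was at 56.4, 56.3 and 59.4 CPM against 49.1, 33.2 and 44.4 CPM (0.46, SE 0.15, edgeR unadjusted p = 0.0230). The 9 trafficking genes tested ranged from -0.20 to 0.22. This list counted 1 gene in place of 2 without the pair as a block, and also without replicate 2 or without replicate 3.

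**Figure D5:**
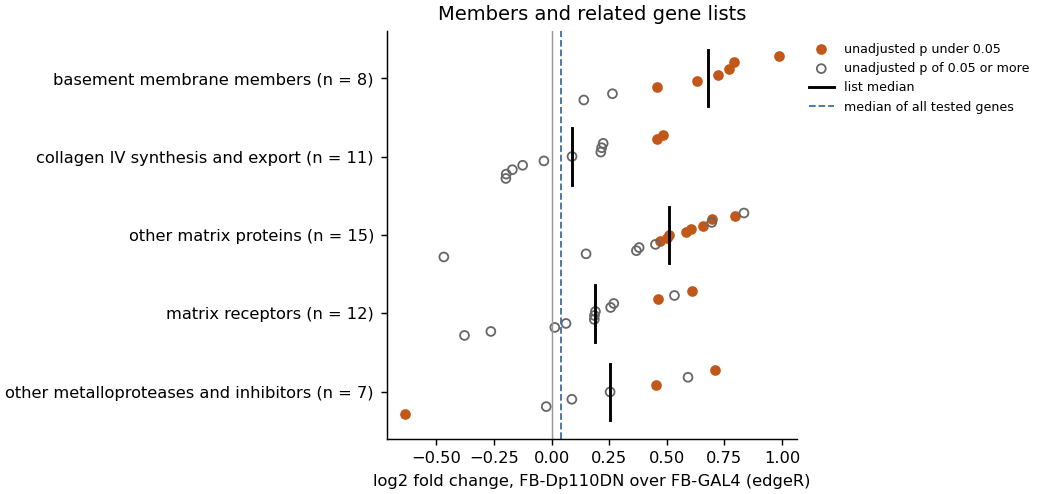
Log2 fold change of FB-Dp110DN over FB-GAL4 (horizontal axis, edgeR) for each tested gene of the 8 members and of the related lists, filled where the unadjusted p was under 0.05. Black bars are list medians, 0.68 for the members and 0.51 for other matrix proteins, and the dashed line is the median of all tested genes.

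Among matrix receptors and their adhesion partners, 2 of 12 tested genes were higher and 0 were lower at an unadjusted edgeR p under 0.05, and the median log2 fold change was 0.19. This share of 16.7% was near the 13.7% of all tested genes. Both genes that passed encode integrin alpha subunits. The other integrin subunit genes tested, ItgaPS4, mys and Itgbn, did not pass, with log2 fold changes of -0.38, 0.19 and 0.19. Of these, ItgaPS4 had only 10 to 53 counts per library. The gene if, for alpha PS2, was at 116, 139 and 152 CPM in FB-Dp110DN and at 89.3, 80.3 and 95.2 CPM in FB-GAL4 (0.61, SE 0.13, edgeR unadjusted p = 0.0038, DESeq2 adjusted p = 0.0101). The gene mew, for alpha PS1, was at 44.0, 48.9 and 66.0 CPM against 36.9, 35.8 and 41.4 CPM (0.46, SE 0.14, edgeR unadjusted p = 0.0163). The groups did not overlap for either gene.

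Of 7 other metalloproteases and inhibitors tested, 2 were higher and 1 was lower at an unadjusted edgeR p under 0.05, against 13.7% and 12.5% of all tested genes, with a median log2 fold change of 0.25. The secreted proteases AdamTS-B and AdamTS-A had log2 fold changes of 0.71 (SE 0.20) and 0.45 (SE 0.15), with adjusted p-values of 0.153 and 0.154 in edgeR. The gene kuz, which encodes the membrane protease kuzbanian that cleaves Notch, was at 43.5, 31.1 and 50.1 CPM in FB-Dp110DN and at 55.8, 73.3 and 62.2 CPM in FB-GAL4. Its groups did not overlap, and its log2 fold change was -0.63 (SE 0.21, edgeR unadjusted p = 0.0234). DESeq2 called none of the genes of this list, against 6.82% higher and 3.89% lower of the genes given an adjusted p by that tool.

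The library profile shared by the collagen chains was compared with that of every other tested gene, as the root mean square difference of centred log2 CPM over the 6 libraries. The difference between vkg and Col4a1 on this measure was 0.04. The closest genes outside the members were FBgn0083919, which matched no symbol in the reference tables used here (0.06), Dscam4 (0.09), Nep1 (0.09), bumpel (0.10) and CG1552 (0.10). FBgn0083919 was at 971, 1242 and 1937 CPM in FB-Dp110DN and at 697, 732 and 1096 CPM in FB-GAL4, while the other 4 were at or below 27.3 CPM in every library. Among 10396 ranked genes, LanA stood at place 536, Mmp1 at 630, SPARC at 1135, Mmp2 at 1151, LanB1 at 1254 and Ndg at 4991.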

How the data were processed

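Raw read counts per gene were deposited by the authors in a table of 6 libraries. Per the study's methods, paired-end reads were aligned with TopHat2 2.0.11 to BDGP5 and counted with HTSeq. The strand setting is not given in the sources used here, so reads of overlapping or antisense genes cannot be told apart. The authors' own comparison columns in that table (the mean signal over libraries, the log2 fold change with its error, the Wald score and the p-values) were not used.

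Identifiers were matched to symbols in an annotation of a later build, for 15002 of 15682 genes, with 680 unmatched. That build also gave arm, strand, gene order and exonic length, and no coordinates are printed. The identifiers of LanB2 and trol at hand matched no row, and sequences were not used here. In the related lists, Pdi, Tango1, KdelR, scb and Meltrin were not matched to a row either.

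For testing, edgeR 4.0.16 (R 4.3.3) was fitted by quasi-likelihood to the counts after filterByExpr and TMM scaling, with terms for group and for replicate number (the block). Benjamini-Hochberg adjustment ran over all 10398 tested genes. The standard error was derived from the log2 fold change and its F statistic, and log2 CPM used a prior count of 2. The study's methods state that mutant and control samples were paired by processing day. Deviations of same-numbered libraries from their group means correlated across genes at 0.416, 0.189 and 0.590 for pairs 1, 2 and 3. Libraries numbered 1 and 2 correlated across numbers at 0.384 and 0.221, so the values set number 3 apart but not 1 from 2, and that pairing rests on the methods and titles. Since control replicates 2 and 3 share a description, the titles alone number them. The labels do not say whether flies of different libraries came from separate cultures, so p-values measure the spread between these samples. No libraries differed by as little as sampling noise.

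The alternatives left out the replicate block, the filter or each pair in turn, required 10 counts in all libraries, or used the size factors or the Wald test of DESeq2 1.42.0. The code was tested on simulated data. Genes to be named were set as the members, Pi3K92E, in each list up to 4 genes of smallest unadjusted p under 0.05, and the 5 closest profiles. Any other gene whose values are given was named after they were seen. This holds for Pxn, Tsp, fat-spondin, Cow, ItgaPS4, mys, Itgbn, SelT and CG31650, besides those marked so in the Results. Members, lists and tests were chosen with earlier results of these data known.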

Additional observations from a re-analysis of the deposited data

How the results depend on the processing

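Over 64 combinations of a measured gene and an alternative, the direction never changed. The side of the threshold on the adjusted p was kept in 56 and crossed into calls in 8. The genes called in the whole table numbered 3 with the replicate block, 0 without it, 969 with the DESeq2 Wald test (617 higher, 352 lower), 5 with no filter, and 0 to 862 with a pair left out. The genes past the unadjusted p numbered 2717, and 1337 to 2623 with a pair left out. Of the 8 matrix genes, 0 were called, 5 with the Wald test and 0 to 3 with a pair left out. The 3 were vkg, Col4a1 and Ndg without replicate 3 (adjusted p of 0.0275, 0.0358 and 0.0285), a setting that called 8.32% of all genes. That edgeR fit pooled the spread fully over genes (infinite prior degrees of freedom, against 4.1 with all pairs). Its unadjusted p-values for vkg, Col4a1 and Ndg were 0.00162, 0.0024 and 0.00172. With all pairs they were 0.000797, 0.0014 and 0.00267, so p was larger without replicate 3 for vkg and Col4a1 and smaller for Ndg. Without the replicate block, 4 of the 8 passed the unadjusted p in place of 6, against 8.92% of all genes higher. The matrix genes that did not overlap numbered 3, against 11.6% of all genes, and 5, 3 and 7 without replicates 1, 2 and 3, against 24%, 16.7% and 31.9%. Collagen synthesis and export genes past the unadjusted p numbered 2, 1 without the replicate block, and 1 to 2 with a pair left out. The cause of these shifts was not tested. Depth limits Mmp2 most, with 139 to 904 counts per library.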
